A study of Mus musculus with 6 samples.

Results

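Heparan sulfate sulfotransferases are the Golgi enzymes that place sulfate groups on heparan sulfate, and 10 of their genes were followed in neurons sorted from the embryonic mouse cortex: Ndst1, Ndst3, Hs2st1, Hs6st1, Hs6st2, Hs6st3, Hs3st1, Hs3st2, Hs3st4 and Hs3st5. The rows with these symbols were taken from a table of 20367 genes, and all 10 were among the 19561 genes with a value above 0 in at least 1 library. They were chosen because Hs3st4 was among the largest increases in one of the sorted populations, so the comparison of the populations served in the choice and is described for these genes without a test.

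The embryos were C57BL/6J and came from heterozygous Tbr2(Eomes)-GFP mice crossed with homozygous DCX-mRFP mice. Embryos with both reporters were used. GFP reports Tbr2 (Eomes), made in intermediate progenitors, and mRFP reports doublecortin (DCX), which binds microtubules in newborn neurons. Cells of both colors were called IPN, for neurons derived from intermediate progenitor cells, and cells that were red alone non-IPN, so the non-IPN gate is defined by the lack of GFP and not by a marker of its own. Each population gave 1 library at each of embryonic days 13.5 (E13.5), 15.5 (E15.5) and 16.5 (E16.5). No separate animals are named, so p-values measure only the spread between these samples, which may be technical. Per the labels' protocols, 1000000 sorted cells went into each E15.5 library and 10000 into each of the others, whose RNA was amplified. Age, cell number and amplification cannot be told apart between E15.5 and the other days, and no such difference was tested.

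Heparan sulfate is a long sugar chain attached to core proteins such as syndecans, glypicans and agrin at the cell surface and in the matrix. Ndst enzymes remove acetyl groups from glucosamine and put sulfate on the freed nitrogen, which opens the way for the later steps: 2-O-sulfation of the uronic acid by Hs2st1, 6-O-sulfation of glucosamine by the Hs6st enzymes, and the rarer 3-O-sulfation by the Hs3st enzymes. The resulting sulfate pattern sets how the chain binds growth factors such as FGFs and guidance cues such as Slits, and the enzymes are known for roles in axon guidance and in the growth of the forebrain.

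The libraries had column totals of 12583677 to 32538995 in the deposited values, which appear scaled, so the true depth is unknown. Levels below are CPM, the deposited value scaled to a column total of 1000000. Eomes, the gene behind the GFP reporter, stood at 437.12 CPM in IPN against 214.24 in non-IPN on E13.5, 101.71 against 72.5 on E15.5, and 98.42 against 72.0 on E16.5. The 5 intermediate progenitor markers, Eomes included, summed to 1604.9 CPM in IPN against 1748.8 in non-IPN on E13.5. The sums were 379.7 against 212.8 on E15.5 and 828.2 against 584.8 on E16.5. Of these 5, 2 were higher in IPN at all 3 ages and 1 was lower at all 3. Dcx, the gene behind mRFP, was at 1391.76 CPM in IPN against 855.61 in non-IPN on E13.5. It was lower in IPN on E15.5 (2863.4 against 4642.68) and on E16.5 (3269.72 against 4448.29). Marker lists showed what each gate held. All 8 interneuron markers were lower in IPN at all 3 ages (summed level 18.4 to 60.6 CPM in IPN, 1220.1 to 4530.9 in non-IPN), and 7 of 8 projection neuron markers were higher (3301 to 5069.7 in IPN, 408.5 to 2507.8 in non-IPN). All 10 microglia and macrophage markers, which are not neuronal, were lower in IPN at all 3 ages (1.8 to 5 CPM in IPN, 458 to 910.9 in non-IPN). Radial glia markers summed to 385.9 to 1254.3 CPM in IPN and 647.8 to 4551.7 in non-IPN, the highest value being non-IPN at E13.5. Red blood cell markers reached 47373.7 CPM in that same library and at most 231.8 in any other. None of the 10 microglia markers was at 0 in all IPN libraries. These differences in cell makeup run along the population comparison below. Their part in the sulfotransferase differences was not tested, and fewer cells of a type and less RNA per cell cannot be told apart in bulk samples.

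The promoter windows of 3 members are shown because these genes mark the extremes of what follows: Hs3st4 had the highest mean ratio of IPN to non-IPN, Hs3st5 the steepest rise with age among members above 0 in every library, and Hs2st1 was the single member lower in IPN at every age. They are RefSeq windows on GRCm38.p6 from 250 bases before to 50 after a gene's start, written 5′ to 3′ on the gene's strand, with matches to any of 4 motifs in capitals (CAGATG, the NeuroD type of E-box; CAGCTG, the palindromic E-box; AGGTGTGA, a T-box site; TAATTA, a homeobox core; each searched on both strands). The Hs3st4 window is chr7:123982578-123982877 on the + strand, that of Hs3st5 chr10:36506557-36506856 on the + strand, and that of Hs2st1 chr3:144570167-144570466 on the - strand.
Hs3st4: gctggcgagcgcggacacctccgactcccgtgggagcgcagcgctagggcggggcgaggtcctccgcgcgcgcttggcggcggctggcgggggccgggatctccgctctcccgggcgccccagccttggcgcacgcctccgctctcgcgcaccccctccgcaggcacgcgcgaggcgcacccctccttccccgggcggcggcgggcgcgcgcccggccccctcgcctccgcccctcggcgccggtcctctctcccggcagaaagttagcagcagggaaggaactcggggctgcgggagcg
Hs3st5: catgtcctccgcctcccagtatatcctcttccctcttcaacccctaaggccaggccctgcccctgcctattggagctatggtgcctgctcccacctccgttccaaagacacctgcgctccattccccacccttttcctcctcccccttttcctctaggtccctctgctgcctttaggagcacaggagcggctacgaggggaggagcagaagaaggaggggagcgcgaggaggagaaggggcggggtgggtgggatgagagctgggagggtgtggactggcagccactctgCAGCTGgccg
Hs2st1: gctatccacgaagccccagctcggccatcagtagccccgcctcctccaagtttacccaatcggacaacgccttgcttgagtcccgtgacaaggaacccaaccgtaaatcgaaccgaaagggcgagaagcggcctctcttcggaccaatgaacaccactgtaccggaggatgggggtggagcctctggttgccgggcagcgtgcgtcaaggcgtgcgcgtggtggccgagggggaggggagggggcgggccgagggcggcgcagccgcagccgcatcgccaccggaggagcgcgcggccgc

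Hs3st4 had 79.3% GC and 47 CpG dinucleotides in 300 bases, Hs2st1 67.7% and 32, and Hs3st5 63% and 9, beside a median of 52.7% and 7 over all 32851 windows of that length. Of these 3, only Hs3st5 held a match, 1 CAGCTG near its 3′ end. Over 9 members with a window (11 windows in all), CAGCTG also stood in Hs6st3, CAGATG in 1 window of Ndst3 and TAATTA in the other, and AGGTGTGA in none. Among all windows, 16.3% held CAGCTG, 17.2% CAGATG, 5.29% TAATTA and 1.28% AGGTGTGA.

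The direction of the difference between IPN and non-IPN was described for each of the 10 genes. On the deposited scale, in 6 of 10, Ndst3, Hs6st1, Hs6st2, Hs3st1, Hs3st4 and Hs3st5, IPN was above non-IPN at all 3 ages, and in 1, Hs2st1, it was below at all 3. Of all genes tested, 14.2% were above at all 3 ages and 15.2% below, and limma called 3.39% of all genes between the populations. Since the members were chosen on this contrast nothing is read from the counts. On the CPM scale Hs6st2 was not above at E13.5, which leaves 5 of 10. Hs3st4, Hs3st1 and Ndst3 were at least 1 log2 unit above at every age, as were 1.19% of all genes. The median log2 ratio of the 10 members was 1.88, 1.72 and 1.03 in order of age, against 0 over all genes at each age. This median too rests on the contrast used in the choice, so nothing is read from it. Ratios are of the deposited value plus 1, which understates differences of low genes.

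**Figure D1:**
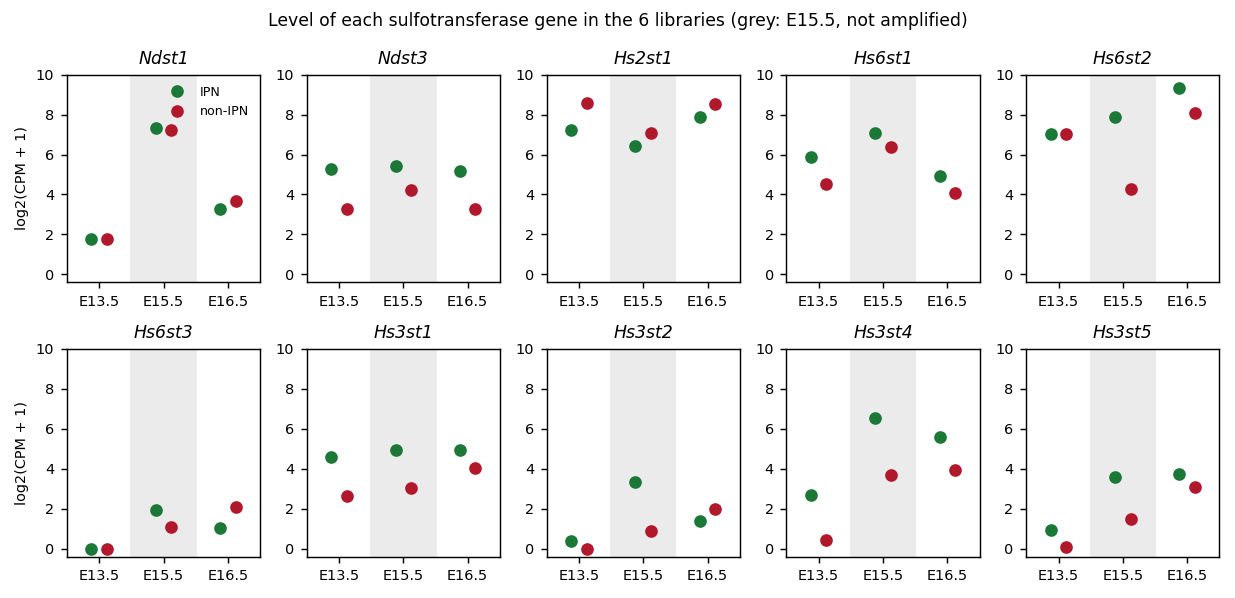
Level of each of the 10 genes as log2(CPM + 1), with 1 point per library (green IPN, red non-IPN) for the 3 ages; the grey band marks the E15.5 libraries, which were not amplified. Hs3st4 in IPN stands above non-IPN at each age, Hs2st1 stands below, and Ndst1 lies at the same height in both populations but far higher at E15.5 than in the amplified libraries.

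Among the 3-O-sulfotransferases, which carry out the last and rarest modification, Hs3st4 had the largest mean log2 ratio over the 3 ages. At E15.5 the log2 ratio of Hs3st2 was larger, at 3.47 against 2.99 for Hs3st4. Hs3st4 was at 5.49 CPM in IPN against 0.36 in non-IPN on E13.5, 91.72 against 11.96 on E15.5, and 47.06 against 14.15 on E16.5. IPN was the higher population at every age. In deposited values, without the added 1, it was 17, 7.95 and 3.87 times non-IPN in order of age, the first from 85 and 5. The mean log2 ratio was 2.92 ± 0.95 (SD, n = 3 ages).

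Hs3st1, which makes the sulfation pattern that binds antithrombin, showed a smaller gap. It was at 23.2 CPM in IPN against 5.22 in non-IPN on E13.5, 29.49 against 7.14 on E15.5, and 29.82 against 15.42 on E16.5, a mean log2 ratio of 1.85 ± 0.60 (SD, n = 3 ages). All 3 IPN values were above all 3 non-IPN values. Hs3st5 was lower in level: 0.9 CPM in IPN against 0.07 in non-IPN on E13.5, 11.16 against 1.82 on E15.5, and 12.52 against 7.47 on E16.5, with a mean log2 ratio of 2.17 ± 1.06 (SD, n = 3 ages) that was 1.2 with CPM scaling. The E13.5 pair of Hs3st5 rests on deposited values of 14 and 1.

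Hs3st2 did not keep a direction. It was at 0.32 CPM in IPN but listed at 0 in non-IPN on E13.5, 9.19 against 0.83 on E15.5, and 1.64 against 2.94 on E16.5. In deposited values IPN was 11.5 times non-IPN at E15.5, and it was the lower population at E16.5. The mean log2 ratio of 1.82 ± 2.14 (SD, n = 3 ages) was smaller than its spread, and was 0.99 without the E15.5 pair and 3.03 without the E16.5 pair. The remaining enzymes of this reaction were not among the members. Hs3st3b1 gave 25 CPM in IPN against 2.23 in non-IPN at E15.5 and no more than 8.89 elsewhere, Hs3st3a1 reached 2.24, and Hs3st6 reached 0.25. None of these 3 was called between populations (limma, adjusted p = 0.237, 0.359 and 0.769). Hs3st3a1 and Hs3st3b1 are close copies of each other in their catalytic part, so their single values are uncertain.

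**Figure D2:**
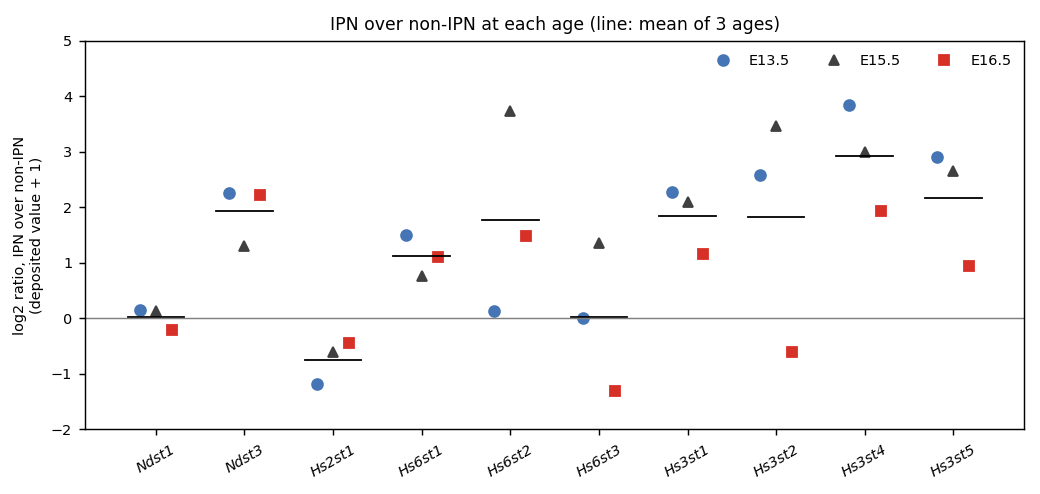
Log2 ratio of IPN over non-IPN (deposited value + 1) for each gene, with circles for E13.5, triangles for E15.5 and squares for E16.5; the black line is the mean of the 3 ages. Hs3st4 has the highest mean (2.92), Hs2st1 is below 0 at every age, Ndst1 stays near 0, and Hs6st2, Hs6st3 and Hs3st2 spread widely.

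The 6-O-sulfotransferases, whose product is needed by many FGFs, had wider and narrower gaps. Hs6st2 was at 129.27 CPM in IPN against 130.43 in non-IPN on E13.5, 231.93 against 18.05 on E15.5, and 641.5 against 267.74 on E16.5. The populations were nearly level at E13.5 and, in deposited values, 13.3 times apart at E15.5. The mean log2 ratio was 1.78 ± 1.82 (SD, n = 3 ages), and 0.80 without the E15.5 pair. At E13.5 the direction of Hs6st2 depended on the scale, since its deposited values were 2000 in IPN and 1824 in non-IPN while its CPM was slightly lower in IPN.

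Hs6st1 had a narrower range of ratios. Its level was 57.85 CPM in IPN against 22.38 in non-IPN on E13.5, 135.17 against 82.87 on E15.5, and 29.14 against 15.74 on E16.5. In deposited values, without the added 1, IPN was 2.86, 1.69 and 2.15 times non-IPN. The mean log2 ratio was 1.12 ± 0.38 (SD, n = 3 ages). Hs6st3 was near the lower limit of the data, listed at 0 in both populations on E13.5, then at 2.8 CPM in IPN against 1.12 in non-IPN on E15.5 and 1.09 against 3.26 on E16.5. The order of the populations for Hs6st3 was opposite at the last 2 ages, and its mean log2 ratio was 0.02 ± 1.33 (SD, n = 3 ages).

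The enzymes of the earlier steps included Hs2st1, lower in IPN at every age, and Ndst1, nearly even at every age. Hs2st1, the sole 2-O-sulfotransferase of this chain, was at 150.34 CPM in IPN against 380.79 in non-IPN on E13.5, 83.48 against 131.83 on E15.5, and 234.33 against 370.58 on E16.5. In deposited values non-IPN was 2.29, 1.52 and 1.36 times IPN in order of age, with a mean log2 ratio of -0.75 ± 0.39 (SD, n = 3 ages).

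Ndst1, the broadly expressed N-sulfotransferase, was at 2.46 CPM in IPN against 2.43 in non-IPN on E13.5, 158.81 against 150.9 on E15.5, and 8.62 against 11.6 on E16.5. Its mean log2 ratio was 0.02 ± 0.20 (SD, n = 3 ages), with no ratio of deposited values beyond 1.16 times in either direction. Ndst3, a paralog known mainly from brain, was at 37.23 CPM in IPN against 8.58 in non-IPN on E13.5, 42.12 against 17.61 on E15.5, and 35.29 against 8.66 on E16.5. In CPM, all IPN values of Ndst3 were above all non-IPN values. In deposited values the E16.5 IPN value (516) was below the E15.5 non-IPN value (552). The folds in deposited values were 4.8, 2.48 and 4.73 in order of age, and the mean log2 ratio was 1.93 ± 0.54 (SD, n = 3 ages).

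Whether the population gap of a gene moved with age was tested with a population by embryonic day term (limma, Benjamini-Hochberg adjustment over all 19561 genes). It called 0 of 10 members (1 at an unadjusted p under 0.05) and 1.3% of all genes, 0.624% with a rising and 0.68% with a falling slope. Hs3st4 came closest, with a slope of -0.60 ± 0.28 log2 units per day (adjusted p = 0.292). The term has 1 residual degree of freedom, so a member that did not pass is not shown to have kept its ratio.

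Between E13.5 and E16.5, the ages whose libraries were made alike, limma called 4 of 10 members higher and 0 lower: Hs3st5, Hs3st4, Hs6st3 and Ndst1. The fit takes the IPN and non-IPN libraries of an age as its replicates, although they were sorted together. Age therefore cannot be told apart from the pool, sort or amplification run of each age. Limma called 6.02% of all genes, 3.76% higher and 2.26% lower, and the choice of members did not use this contrast. Over the 10 members the median log2 difference was 1.72, against 0 over all genes tested. The same contrast was fitted for 6 other chain-modifying enzymes: Ndst2, Ndst4, Glce, Hs3st3a1, Hs3st3b1 and Hs3st6. Of these 6, 0 were called higher and 0 lower. Their median log2 difference was 0.22, the largest being 1.48 for Hs3st3b1. At E16.5, 7 of 10 were above E13.5 in both populations (27.4% of all genes were) and 2 were below in both (24.5% of all genes were).

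Hs3st4 rose by 3.95 ± 0.59 log2 units (SE, adjusted p = 0.00582), from 5.49 to 47.06 CPM in IPN and from 0.36 to 14.15 in non-IPN. The rise was therefore seen in each population, at 8.09 times in IPN and 35.6 times in non-IPN in deposited values. Hs3st5 rose by 4.59 ± 0.89 (adjusted p = 0.016), from a deposited value of 14 to 183 in IPN and from 1 to 94 in non-IPN, and its difference was 2.90 with CPM scaling. Hs6st3 rose by 4.74 ± 1.11 (adjusted p = 0.0344) from a listed 0 in both populations to deposited values of 16 and 41, and its difference was 1.86 with a pseudocount of 10 and 1.58 with CPM scaling. Ndst1 rose by 1.89 ± 0.44 (adjusted p = 0.0353), from 38 to 126 in IPN and from 34 to 146 in non-IPN.

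Cell makeup moved with age too: radial glia markers summed to 1254.3 CPM in IPN and 4551.7 in non-IPN on E13.5, and to 570.4 and 1085.1 on E16.5, while projection neuron markers went from 3301 to 5069.7 in IPN and from 487.6 to 2507.8 in non-IPN. Their part in the rises was not tested.

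The other 6 did not pass. Hs3st2 differed by 3.65 ± 1.18 log2 units (adjusted p = 0.101; 1.84 without the E16.5 non-IPN library), Hs6st2 by 1.56 ± 0.76 (adjusted p = 0.309; 0.32 when the IPN library of E13.5 was left out and 2.79 when its non-IPN library was), Hs3st1 by 0.84 ± 0.48 (adjusted p = 0.356) and Hs2st1 by 0.18 ± 0.27 (adjusted p = 0.732). Hs6st1 was the member that was lower at E16.5 by most, at -0.86 ± 0.33 (adjusted p = 0.158), with 57.85 then 29.14 CPM in IPN, and 22.38 then 15.74 in non-IPN. Ndst3 was nearly level, at -0.15 ± 0.43 (adjusted p = 0.874). Without any single one of the 4 amplified libraries limma called 0 genes in the whole table (1809 to 4025 at an unadjusted p under 0.05), so none of the 4 rises was then called, although their sign held. Without the E15.5 pair they were at adjusted p = 0.071 for Hs3st4, 0.0944 for Hs3st5, 0.139 for Hs6st3 and 0.281 for Ndst1. With a pseudocount of 10 or with CPM scaling Hs3st4 alone was called (adjusted p = 0.0305 and 0.0447).

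**Figure D3:**
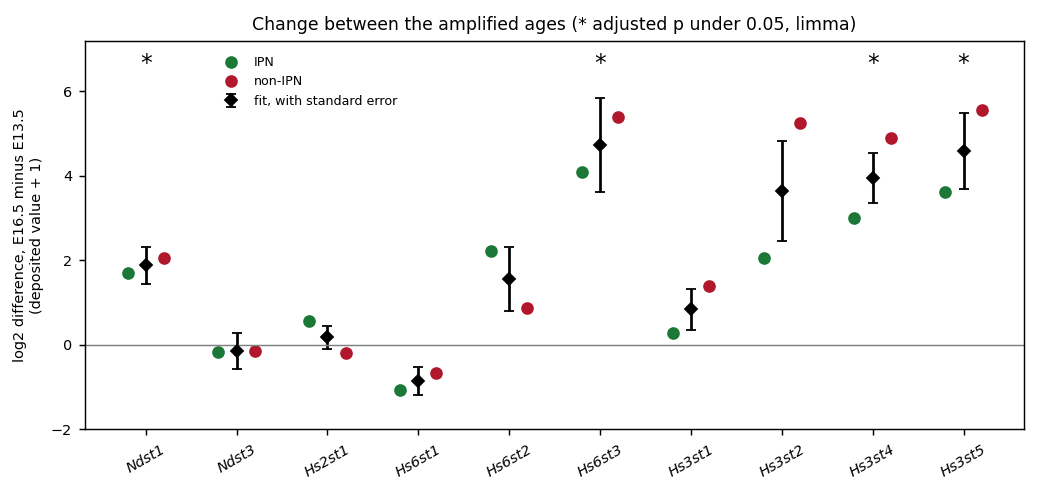
Log2 difference between E16.5 and E13.5 (deposited value + 1) for each gene in IPN (green) and non-IPN (red), with the fitted difference and its standard error as a black diamond; a star marks adjusted p under 0.05. Hs6st3, Hs3st4, Hs3st5 and Ndst1 pass, Hs6st1 lies below 0 in both populations and Ndst3 near 0.

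Shares within a reaction were compared per kilobase, using the longest coding transcript of each gene in GENCODE M21, since longer transcripts yield more reads. In 3-O-sulfation, Hs3st4 took 48.1% of the family's summed CPM per kilobase in IPN at E15.5 and Hs3st1 29.3%. In non-IPN at that age Hs3st1 took 44.7% and Hs3st4 39.6%. At E13.5 Hs3st1 took 83.2% in IPN and 85.2% in non-IPN, and at E16.5 45.1% and 50.5%. Summed over the 7 genes, the family level was 16.5 CPM per kilobase in IPN and 3.6 in non-IPN on E13.5. It was 59.8 against 9.5 on E15.5 and 39.2 against 18.1 on E16.5. The sums of 6-O-sulfation were 45.3 against 36.0, 91.3 against 27.1 and 155.9 against 67.7 in order of age. Those of N-sulfation were 9.1 against 5.4, 37.0 against 35.1 and 11.9 against 7.3. All 3 families were higher in IPN at each age. Their sums include members chosen on this contrast, so nothing is read from them.

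In 6-O-sulfation the leading gene differed between the populations at E15.5 alone. Hs6st1 took 82.3% there in non-IPN, where Hs6st2 took 15.3%, while in IPN Hs6st2 took 58.4% and Hs6st1 39.8%. In the 4 amplified libraries Hs6st2 led with 65.6% to 94.6%. In N-sulfation Ndst1 led at E15.5 with 66.3% in IPN and 66.5% in non-IPN. In the amplified libraries the leading gene was Ndst3 in IPN (73.1% at E13.5, 53.3% at E16.5) and Ndst2 in non-IPN (59.1% and 51.4%). With 1 library per population and age, these shares have no replicate check. Transcript GC content was 54.6% for Ndst1 and 44.3% for Ndst3, and 57.7% for Hs6st1 and 45.2% for Hs6st2. GC content ran with the gap between library types (below), and its part in these shares was not tested.

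**Figure D4:**
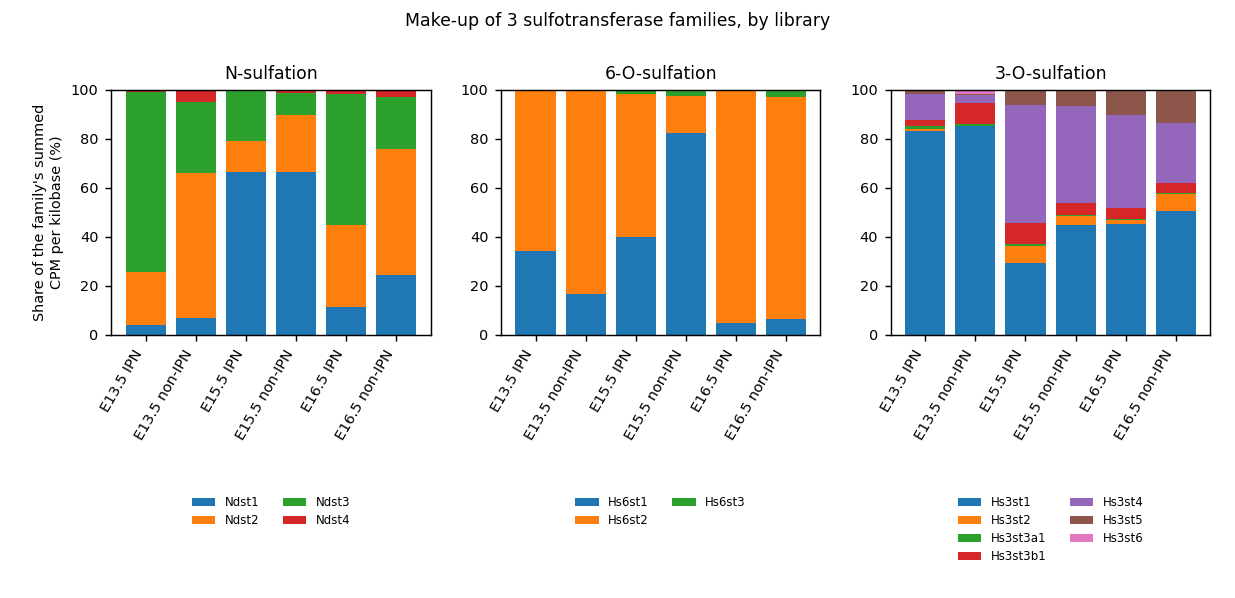
Share of each gene in its family's summed CPM per kilobase (stacked bars, percent) in the 6 libraries, for N-sulfation (Ndst1 to Ndst4), 6-O-sulfation and 3-O-sulfation. Hs3st4 (purple) is the largest part of 3-O-sulfation in IPN at E15.5, Hs6st1 leads 6-O-sulfation only in non-IPN at E15.5, and Ndst1 leads N-sulfation only in the E15.5 libraries.

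The members differed between the library types along with the base makeup of their transcripts. Ndst1 averaged 154.86 CPM at E15.5 and 6.28 in the amplified libraries, a difference of -4.66 in mean log2(CPM + 1). Hs3st4 stood at -1.95, Hs6st1 at -1.89, Hs3st2 at -1.16 and Hs6st3 at -0.71, and these 5 were the members in the highest of 4 equal bins of transcript GC content (54.3% and above). Hs6st2, with 45.2% GC, was at 1.81 and Hs2st1, with 45.5%, at 1.33, while Ndst3 (44.3%) and Hs3st5 (48.6%) were both at -0.58 and Hs3st1 (47.9%) at 0.08. Spearman's rho of GC content with this difference was -0.67 over the 10 members and -0.62 over 8487 genes with a mean of at least 10 CPM. All these points share the same 6 libraries, so the values are descriptive. Over the same 8487 genes the median difference was 0.48 in the bin with least GC and -1.91 in the bin with most. GC content ran less with the comparisons made within an age or between amplified ages: rho was 0.05 with the population difference and 0.11 with the E16.5 minus E13.5 difference. Of the 4 members called between ages, Hs3st4, Hs6st3 and Ndst1 were in the bin with most GC. The part of amplification in these levels was not tested.

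**Figure D5:**
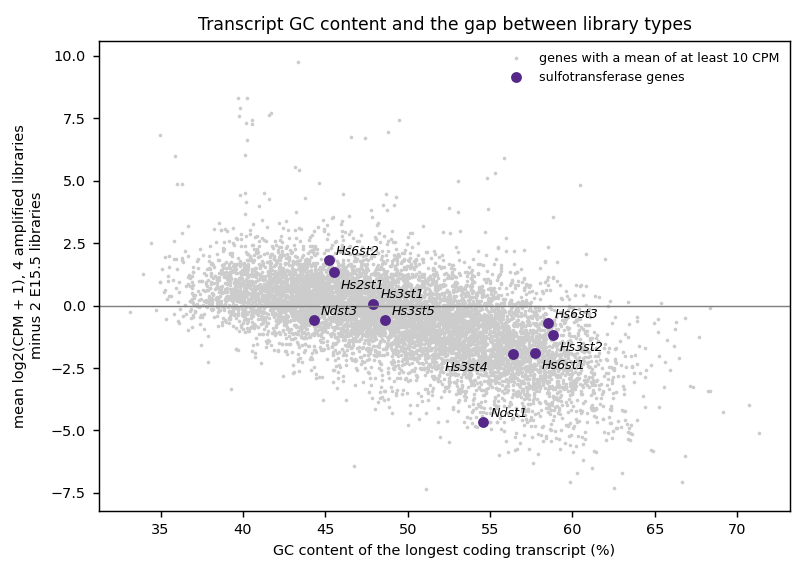
Transcript GC content (percent, longest coding transcript in GENCODE M21) against the mean log2(CPM + 1) of the 4 amplified libraries minus that of the 2 E15.5 libraries; grey points are genes with a mean of at least 10 CPM and purple points the 10 sulfotransferase genes. The cloud falls from left to right (rho -0.62), and Ndst1 lies lowest of the members at -4.66.

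Expression patterns most like that of Hs3st4 were ranked by Pearson's r of log2(CPM + 1) over the 6 libraries, among 9348 genes with a mean of at least 10 CPM. Among the most alike were Camk1d (r = 0.994), Nefm (0.993), Igsf3 (0.99) and Jakmip1 (0.988). Nefm, a neurofilament subunit, was at 13.8, 87.1 and 47.3 CPM in IPN in order of age, against 2.4, 21.1 and 25.9 in non-IPN. In all, 143 genes had an r over 0.9 over these 6 libraries. The libraries differ in amplification, age and population at once, and the part of each in these r values was not tested. Among the members, taken without the filter on level, r with Hs3st4 was 0.93 for Hs3st5, 0.86 for Hs3st2, 0.77 for Hs3st1 and 0.75 for Hs6st3. It was 0.65 for Ndst3, 0.64 for Ndst1, 0.46 for Hs6st1, 0.37 for Hs6st2 and -0.59 for Hs2st1.

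Around these enzymes, 74 other genes of heparan sulfate synthesis, breakdown and response and of the related chondroitin sulfate pathway were examined, of which 73 could be tested. Between populations 1 was called higher in IPN and 2 lower (limma; background 0.982% higher and 2.41% lower). Ust, which sulfates uronic acid in chondroitin and dermatan sulfate, was higher by 2.52 ± 0.53 log2 units (SE, adjusted p = 0.0272), with 9.18, 25.27 and 16.35 CPM in IPN in order of age, against 0.93, 6.38 and 4.13 in non-IPN. The IPN level of Ust exceeded every non-IPN level at each age. It was the single gene called among 9 chondroitin and dermatan sulfate enzymes.

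Gusb, the lysosomal beta-glucuronidase, was lower in IPN, at -4.60 ± 0.47 (adjusted p = 0.0006), at 3.04, 1.63 and 0.96 CPM in IPN against 55.35, 47.91 and 38.07 in non-IPN, and was 1 of 8 lysosomal genes called. Sdc4, a syndecan core protein, was lower in IPN, at -3.77 ± 0.85 (adjusted p = 0.0376) at levels that never passed 3.96 CPM, and was listed at 0 in IPN at E13.5. The Sdc4 difference was -1.56 with CPM scaling (adjusted p = 0.176) and -2.02 with a pseudocount of 10 (adjusted p = 0.146). Gusb and Sdc4 followed the order of the microglia and macrophage markers (1.8 to 5 CPM summed in IPN, 458 to 910.9 in non-IPN), whose part in these values was not tested. Ust was not called without the E13.5, E15.5 or E16.5 pair, nor was Sdc4, and Gusb was not called without the E15.5 pair (adjusted p = 0.051) but was without either other pair.

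No gene was called between populations among 7 linker enzymes, 5 chain polymerases, 6 other chain-modifying enzymes, 3 tested sulfatases and heparanases, 8 genes of sulfate donor supply or 14 FGF receptors and response genes. Between E13.5 and E16.5, 3 of the 73 rose and 1 fell (background 3.76% and 2.26%). Extl3, which starts the heparan sulfate chain, rose by 1.56 ± 0.33 (adjusted p = 0.0228). Impad1, which clears the by-product of the sulfate donor in the Golgi, rose by 1.21 ± 0.29 (adjusted p = 0.0372), and Ids, the lysosomal iduronate sulfatase, by 1.22 ± 0.27 (adjusted p = 0.0271). Fgfr3, an FGF receptor, fell by 2.86 ± 0.61 (adjusted p = 0.0259) and gave 31.74 CPM in IPN against 228.33 in non-IPN on E13.5 and 9.99 against 16.13 on E16.5. Its highest value was in the E13.5 non-IPN library, which also held the highest radial glia sum (4551.7 CPM); the part of those cells was not tested. Without that library the Fgfr3 difference was -1.53, and without the E13.5 IPN library it was -4.18. None of these 4 was called without any single one of the amplified libraries or without the E15.5 pair.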

How the data were processed

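RNA sequencing was done on 6 libraries of sorted cortical cells. The submitters' processing notes name TopHat 1.2.0, CASAVA 1.9, edgeR, SAMtools 0.1.18 and mouse build mm9, with their roles, the read counter, annotation, strand setting and scaling not given in the sources used here. The deposited values are whole numbers, treated as a signal already scaled by the authors, because upper quartiles match within library types (1502 and 1501 for E15.5, 438 to 444 for the other 4). Count models were therefore not used, and no counting interval was computed.

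Files were joined by symbol, leaving out 6 rows of 3 repeated symbols. No 2 libraries were identical. Limma 3.58.1 (R 4.3.3; trend and robust options) tested log2(value + 1), with population and age as factors (2 residual degrees of freedom), Benjamini-Hochberg adjustment over 19561 genes and a threshold of 0.05; a second model added population by day (1 residual degree of freedom). Age serves as the pairing, because IPN and non-IPN of an age were sorted out of dissociated cortices together. Ages are the only replication of the population comparison, and the comparison of ages has none beyond the IPN and non-IPN libraries of each age. The fits were run on simulated data with independent noise in each library, which cannot check noise shared by the libraries of an age. Symbols, lists, tests and the rule for named genes (all members, called pathway genes, the 5 genes most like Hs3st4 by Pearson's r) were chosen with earlier results of these data known. Of the genes most like Hs3st4, 1 is not reported here. The alternatives were a pseudocount of 10, CPM and median-of-ratios scaling, a mean of at least 10 CPM, limma without its options, no age term, and libraries or pairs left out. The reference tables are on GRCm38, not mm9, and gave promoter windows for 9 members and transcript lengths and GC for all 10; no coordinates of the files' build were used. Protein sequences were not used here.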

Additional observations from a re-analysis of the deposited data

Results flagged for a closer look

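The population by embryonic day term (limma, log2 units per day) called 4 of the 73 pathway genes tested and 1.3% of all genes. None of the 10 sulfotransferase genes passed that test. Without limma's trend and robust options the term called 0 genes in the whole table. Etv5, an FGF-responsive transcription factor, had a slope of 2.48 ± 0.32 (adjusted p = 0.00151) and was listed at 0 in IPN on E13.5 beside 21.81 CPM in non-IPN, then at 13.44 against 65.74 on E15.5 and 14.84 against 36.24 on E16.5. Its slope was 1.10 with CPM scaling and 1.32 with a pseudocount of 10. Fgfr2 had a slope of 1.43 ± 0.25 (adjusted p = 0.0435), with 12.02 CPM in IPN against 272.38 in non-IPN on E13.5, 56.67 against 67.14 on E15.5, and 132.83 against 200.51 on E16.5. The E13.5 non-IPN library also held the highest sums of radial glia markers (4551.7 CPM) and red blood cell markers (47373.7 CPM), whose part in these 4 slopes was not tested. Spry2, a feedback inhibitor of FGF signaling, went the other way at -0.90 ± 0.19 (adjusted p = 0.0343), with 44.66 CPM in IPN against 18.95 in non-IPN on E13.5, 13.93 against 22.52 on E15.5, and 30.37 against 84.24 on E16.5.

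Pxylp1, listed under its older symbol Acpl2, encodes the phosphatase that acts on the linker xylose, and had a slope of -0.98 ± 0.17 (adjusted p = 0.0113). It was at 238.05 CPM in IPN against 64.79 in non-IPN on E13.5, 37.67 against 47.56 on E15.5, and 23.87 against 49.43 on E16.5. Over 5 alternatives, Etv5, Spry2 and Pxylp1 were called in 3 each and Fgfr2 in 1. Adjusted p ranged up to 0.401 for the first 3 and 0.406 for Fgfr2. The term has 1 residual degree of freedom and sets the E15.5 pair beside amplified pairs.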

How the results depend on the processing

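Over 6 alternatives each, the mean log2 ratio of IPN to non-IPN ranged from 0.80 to 2.61 for Hs6st2 (lowest without the E15.5 pair). The mean log2 ratio ranged from 0.77 to 3.03 for Hs3st2, 1.2 to 2.78 for Hs3st5 and 2.25 to 3.41 for Hs3st4. Its sign held in 8 of 10 members, the exceptions being Hs6st3 (-0.65 to 0.68) and Ndst1 (-0.10 to 0.14). For the E16.5 minus E13.5 differences of members, 63 of 97 alternatives kept direction and side of the threshold, 30 lost the call and 4 reversed: Hs2st1 without the E13.5 IPN (-0.15) or E16.5 IPN library (-0.04; range -0.15 to 0.52 without each), and Ndst3 without the E13.5 IPN (0.09) or E16.5 non-IPN library (0.08; range -0.39 to 0.09). Neither gene was called under any setting. Counts of calls depended on the settings. The 4 members called between ages became 1 with a pseudocount of 10, 1 with CPM scaling, 2 with a mean of at least 10 CPM (7 members tested), and 0 without limma's options, 0 without the E15.5 pair and 0 to 0 without each amplified library. The 4 pathway genes called between ages became 0 with a pseudocount of 10, CPM scaling, limma without its options or without the E15.5 pair, and 0 to 0 without each amplified library. Over all genes that comparison called 1178, and 452 with a pseudocount of 10, 242 with CPM scaling, 97 without the E15.5 pair, 0 (3414 at an unadjusted p under 0.05) without limma's options and 0 to 0 without each amplified library. Between populations the 3 pathway genes became 1 with a pseudocount of 10 or CPM scaling, 0 without limma's options, 0 without the age term and 0 to 2 without each pair. Over all genes 664 became 334 with a pseudocount of 10, 196 with CPM scaling, 358 with a mean of at least 10 CPM, 0 (1946 at an unadjusted p under 0.05) without limma's options and 54 to 595 without each pair, the 54 being without E15.5. With no replicate block, that is without the pairing by age, 0 were called (676 at an unadjusted p under 0.05). The population by day term called 255, and 9 with a pseudocount of 10, 906 with CPM scaling, 1558 with median-of-ratios scaling, 135 with a mean of at least 10 CPM and 0 (2321 at an unadjusted p under 0.05) without limma's options. Division by column totals alone is a shift of -0.14 log2 units between populations and 0.12 between ages, and CPM scaling also made the added 1 larger relative to the values, so low genes moved by more. CPM scaling gave 13 higher and 183 lower against 192 and 472 between populations, and 182 higher and 60 lower against 736 and 442 between ages. The cause of the changed counts was not tested. The true depth is unknown, so what depth limits cannot be given.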

Other observations

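Among the core proteins that carry heparan sulfate, chosen here after their values were seen, 3 had high levels in both populations and none was called between populations or ages. Agrn, the matrix proteoglycan agrin, was at 164.88 CPM in IPN against 143.59 in non-IPN on E13.5, 510.63 against 669.21 on E15.5, and 168.33 against 232.77 on E16.5. Gpc2, a glypican of developing neurons, was at 75.49 and 33.61, 616 and 518.63, and 65.25 and 59.45 CPM at the same ages. Sdc3, a neuronal syndecan, was at 51.97 and 28.39, 352.77 and 288.37, and 66.82 and 51.5 CPM. In all 3, both E15.5 libraries were above the 4 amplified ones, as they were for Ndst1.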
